A study of Mus musculus with 31 samples.

Results

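Secreted carrier proteins of the olfactory nerve layer (ONL) were followed in the developing mouse olfactory system through 5 genes, of 47729 listed in the count matrix. Ptgds and Vtn were selected because their measured levels were higher in the ONL than in nerve, and Apoe, Apod and Clu were placed beside them as other secreted carriers. Their levels came from RNA-seq of 31 libraries made from pieces of nerve cut by laser microdissection from sections of Sox10:H2BVenus embryos, in which a transgene under Sox10 regulatory sequence marks the nuclei of neural crest-derived glia, and every group carried this transgene. The labels assign 4 libraries to olfactory nerve at E11.5. At E13.5 they give 7 of olfactory nerve beside 5 of ONL, and at E16.5 outer ONL, inner ONL and olfactory nerve have 4 libraries each while trigeminal nerve, whose glia are Schwann cells, has 3. Pieces were taken from 2 embryos at E11.5, from 4 for each other olfactory group and from 3 for trigeminal nerve. The labels do not tie a library to an embryo, so the p-values measure the spread between libraries. Each piece also held tissue next to the glia, and levels are for the whole piece: fewer cells of a type and less RNA per cell cannot be told apart in such samples.

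Olfactory ensheathing cells (OECs) are the glia that wrap olfactory axons from the nasal mucosa to the olfactory bulb, and the ONL is the sheet of axons and OECs on the surface of the bulb. Glia release proteins that bind hydrophobic molecules and move them between cells. Ptgds encodes lipocalin-type prostaglandin D synthase, which makes prostaglandin D and, once secreted, carries retinoids and other lipophilic ligands, and in the brain it is best known from the leptomeninges, the thin membranes over the brain surface. Vtn encodes vitronectin, an adhesive glycoprotein of plasma and extracellular matrix that binds integrins and plasminogen activator inhibitor. Apoe encodes apolipoprotein E, the main lipoprotein constituent released by astrocytes and macrophages in the brain. Apod encodes apolipoprotein D, a lipocalin of glia and fibroblasts, and Clu encodes clusterin, also called apolipoprotein J, an extracellular chaperone of lipids and misfolded proteins.

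The genes lie on 5 chromosomes of the GRCm38 assembly: Ptgds on chromosome 2 (25466709 to 25470046, minus strand), Vtn on chromosome 11 (78499091 to 78502324, plus strand), Apoe on chromosome 7 (19696109 to 19699188, minus strand), Apod on chromosome 16 (31296192 to 31314808, minus strand) and Clu on chromosome 14 (65968483 to 65981547, plus strand). No exon base of any of them overlapped another listed gene in the annotation used. The sequences just before the starts of Ptgds and Vtn are shown because the levels of these genes went together across the E16.5 libraries, and that of Apod because it is the other lipocalin. They are RefSeq promoter sequences of GRCm38.p6, 5′ to 3′ on the strand of the gene, and stop where the first exon annotated by GENCODE begins. Capitals mark ACAAAG or ACAATG on either strand, the core letters that Sox factors such as Sox10 bind.
Ptgds, chr2:25469843-25469999, minus strand: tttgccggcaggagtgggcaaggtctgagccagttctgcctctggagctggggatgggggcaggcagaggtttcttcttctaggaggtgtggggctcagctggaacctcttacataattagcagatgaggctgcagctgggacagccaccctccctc
Vtn, chr11:78498870-78499090, plus strand: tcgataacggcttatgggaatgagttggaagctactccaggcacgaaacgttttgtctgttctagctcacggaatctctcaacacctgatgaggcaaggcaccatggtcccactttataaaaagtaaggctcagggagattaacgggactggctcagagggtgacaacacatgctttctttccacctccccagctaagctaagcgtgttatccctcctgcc
Apod, chr16:31314809-31315058, minus strand: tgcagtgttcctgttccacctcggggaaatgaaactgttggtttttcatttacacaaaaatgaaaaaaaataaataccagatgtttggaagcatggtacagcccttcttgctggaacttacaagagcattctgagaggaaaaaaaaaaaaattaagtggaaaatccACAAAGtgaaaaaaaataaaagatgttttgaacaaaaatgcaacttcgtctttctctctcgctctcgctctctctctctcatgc
In the full 250 bases before the RefSeq start, Ptgds and Vtn held neither hexamer. Apod held 1 match to ACAAAG, and the promoter of Apoe that ends at the annotated start of the gene held 1 match to ACAAAG and 1 to ACAATG. Of 32536 promoters of that length, 25% held at least 1 of the 2 hexamers. The motif CACNAG, bound by Hes repressors and searched on both strands, occurred once in the Ptgds window, within the part that is not printed, 2 times in that Apoe promoter and in neither Vtn nor Apod, and it was present in 36.7% of all promoters. These matches describe letters in a window.

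Library totals ranged from 3512627 to 36705535 counts, and those of trigeminal nerve (30221586 to 32508725) were above those of the other E16.5 groups (13379107 to 16800784). Levels are CPM, counts scaled to a common library size with TMM factors in edgeR, as mean ± SD over libraries. Tests are edgeR's quasi-likelihood test, and a gene was called at a Benjamini-Hochberg adjusted p under 0.05 over all genes tested. Sox10 itself averaged 645 ± 60.9 CPM in outer ONL, 549 ± 133 in inner ONL, 126 ± 37.5 in olfactory nerve and 335 ± 37.0 in trigeminal nerve. Fabp7, an OEC marker, averaged 18900 ± 5140 CPM in outer ONL, 17600 ± 2460 in inner ONL, 1600 ± 783 in olfactory nerve and 82.6 ± 10.5 in trigeminal nerve. The 6 Schwann cell markers summed to 1063 to 1584 CPM in trigeminal nerve and to at most 110.9 in any other E16.5 library. At the earlier stages, the label of 10 libraries differed from the group in which the study averaged them, as found by fitting its group means from the libraries, and 21 were the same. Its E13.5 ONL mean held all 4 libraries labelled E11.5 olfactory nerve and replicate 1 of E13.5 olfactory nerve. Its E11.5 mean held replicates 2 to 5 labelled E13.5 ONL, and its E13.5 nerve mean held the remaining E13.5 libraries. The 6 olfactory bulb neuron markers summed to 1498 to 2134 CPM in the 5 libraries averaged as E13.5 ONL and to 40.7 to 79.4 CPM in the other 11 early libraries, those labelled E13.5 ONL included. Early results are given both by label and grouped as averaged by the study. Those by label hold for the tissue and stage named only if the labels are right, which was not tested.

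The 5 carriers followed different orders across the E16.5 groups. Per kilobase of exon, Vtn was the most abundant in both parts of the ONL, at 716 ± 154 CPM per kb in outer and 788 ± 134 in inner ONL. Apoe followed at 504 ± 93.0 and 329 ± 67.3 CPM per kb, then Apod at 266 ± 11.7 and 122 ± 23.9, Ptgds at 99.4 ± 22.6 and 99.2 ± 23.3, and Clu at 3.46 ± 1.62 and 5.90 ± 1.30. In olfactory nerve the order per kilobase was Apoe (540 ± 157 CPM per kb), Apod (390 ± 212), Clu (30.4 ± 18.4), Vtn (20.9 ± 32.3) and Ptgds (1.69 ± 1.61). In trigeminal nerve Apoe stood at 987 ± 168 CPM per kb and no other carrier above 59.4 ± 6.74, the value of Apod. Apoe was thus the leading carrier of both nerves, and the ONL differed from them most in Vtn and Ptgds, the genes chosen for that difference.

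**Figure D1:**
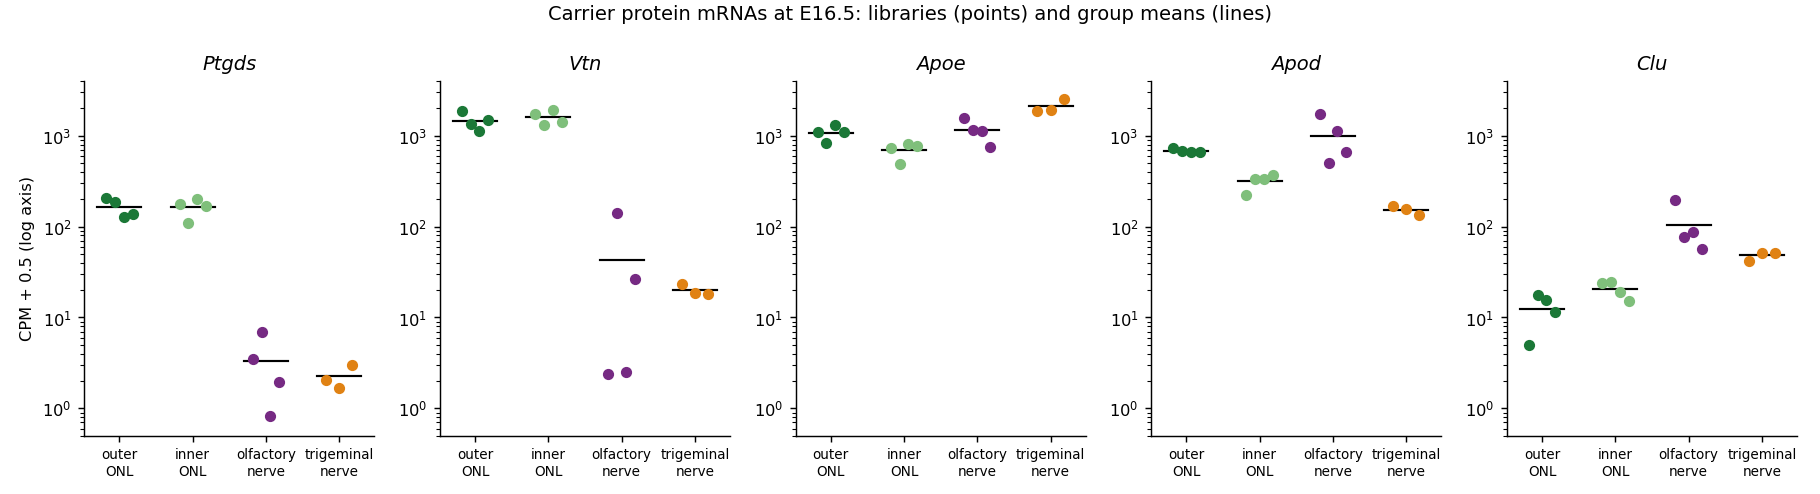
Levels of the 5 carrier genes in the 15 E16.5 libraries, as CPM + 0.5 on a log axis, with a point per library and a line at the group mean. Ptgds and Vtn stand high in the 8 ONL libraries, Apoe is highest in trigeminal nerve, and Apod and Clu are highest in olfactory nerve.

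Ptgds, the synthase, was measured at 205.9, 184.4, 128.7 and 136.5 CPM in the outer ONL libraries. In inner ONL it was at 176.2, 109.5, 199.5 and 168.9 CPM. In olfactory nerve it was at 2.97, 6.43, 0.325 and 1.44 CPM, and in trigeminal nerve at 1.55, 1.19 and 2.50 CPM. No ONL library overlapped a nerve library. The log2 fold change of outer ONL over olfactory nerve was 5.80, a 55.7-fold difference, and over trigeminal nerve it was 6.53. These contrasts chose the gene, so they are given as a description and were not tested. Inner and outer ONL means were 163.5 ± 38.3 and 163.9 ± 37.3 CPM (n = 4 each), and their log2 difference of 0.04 ± 0.40 (SE) did not pass the test (edgeR adjusted p = 0.972). The 2 nerves overlapped, and their log2 difference of 0.73 ± 0.53 did not pass either (edgeR adjusted p = 0.345).

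Vtn reached higher levels with the same split. It was at 1859, 1350, 1114 and 1490 CPM in outer ONL and at 1732, 1323, 1914 and 1432 CPM in inner ONL. In trigeminal nerve it lay between 17.7 and 22.8 CPM. Olfactory nerve was uneven: replicates 1 and 3 held 1.92 and 2.01 CPM, replicate 4 held 26.1 and replicate 2 held 139.3. The log2 fold change of outer ONL over olfactory nerve was 5.03 and over trigeminal nerve 6.19, again as a description with no test. Inner ONL exceeded outer ONL by 0.18 ± 0.77 (SE) on the log2 scale, which did not pass the test (edgeR adjusted p = 0.924). Olfactory exceeded trigeminal nerve by 1.17 ± 0.88 (edgeR adjusted p = 0.362), and without olfactory nerve replicate 2 the difference was -0.87.

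Olfactory nerve replicate 2 was also the highest of its group for Ptgds (6.43 CPM), for Sox10 (179.7 CPM against 97.5 to 121.8) and for Slc6a13, a transporter of leptomeninges (21.9 CPM against 0.124 to 4.26). Ptgds is strongly expressed in leptomeninges, so the levels of 10 leptomeningeal markers were set beside it. They summed to 667 to 1052 CPM in outer ONL, 119 to 330 in inner ONL, 1289 to 1783 in olfactory nerve and 1539 to 1767 in trigeminal nerve. Of 9 tested, 2 were higher and 4 lower in outer ONL than in olfactory nerve (median log2 fold change -0.889). Of all genes tested there, 10.3% were higher and 15.4% lower. Tbx18 and Slc6a13, single markers picked after their values were seen, were highest in outer ONL, unlike the sum of the 10. Slc6a13 was at 169 to 222 CPM in outer ONL and 35.3 to 91.9 in inner ONL, with no overlap, and at 1.33 to 1.77 in trigeminal nerve. Tbx18 was at 17.3 to 23.5 CPM in outer ONL, 3.76 to 16.3 in inner ONL, 0.247 to 1.60 in olfactory nerve and 6.91 to 8.22 in trigeminal nerve. Tbx18 thus overlapped between inner ONL and trigeminal nerve. Ptgds and Vtn overlapped between inner and outer ONL where both markers did not. Slc6a20a, another of the 10, had no counts in any trigeminal nerve library. Which cells the sums stand for was not tested in any group. The part of leptomeningeal tissue in the Ptgds level was not tested.

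**Figure D2:**
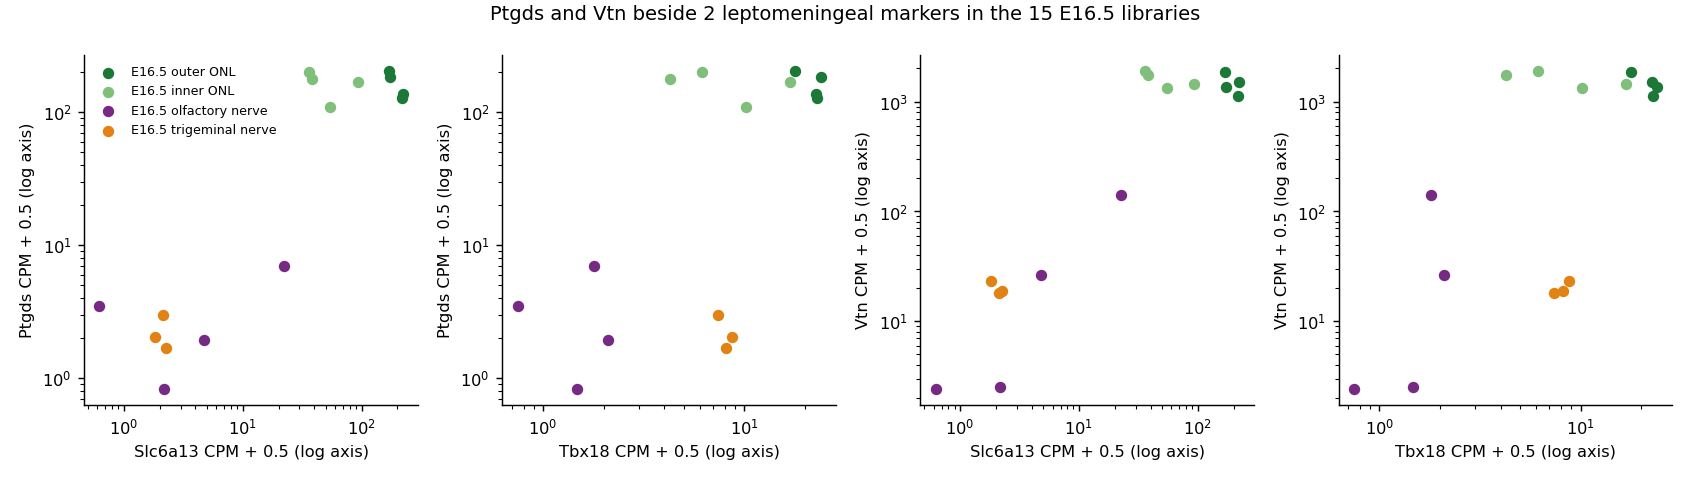
Ptgds (2 panels at left) and Vtn (2 at right) against Slc6a13 and Tbx18 in the 15 E16.5 libraries, as CPM + 0.5 (log axes). These are 2 of the 10 leptomeningeal markers, picked after their values were seen. The 10 together summed higher in every nerve library than in every ONL library. Inner and outer ONL libraries share the same height while the outer ones lie further right, and 1 olfactory nerve library (replicate 2, Vtn 139.3 CPM) lies apart from the other nerves in Slc6a13.

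Apoe was abundant in every E16.5 library, between 493 and 2525 CPM. It was at 1882, 1925 and 2525 CPM in trigeminal nerve, above every olfactory library. Olfactory nerve held 1575, 1163, 1126 and 754 CPM and outer ONL held 1093, 823, 1308 and 1089, so these groups overlapped throughout. Inner ONL held 735, 493, 816 and 768 CPM, below each outer library, and its log2 difference from outer ONL was -0.58 ± 0.20 (edgeR adjusted p = 0.0595). That difference passed with replicate number as a block (edgeR adjusted p = 0.0439), in DESeq2 and with scaling by total count. It also passed with no filter and with these groups fitted alone. It did not pass with DESeq2's size factors in edgeR or in either fit of all 31 libraries. With 1 library left out, it passed only without outer ONL replicate 2 or inner ONL replicate 3. Outer ONL and olfactory nerve differed by -0.18 ± 0.20 (SE) on the log2 scale, which did not pass the test (edgeR adjusted p = 0.593). Inner ONL was lower than olfactory nerve by a log2 fold change of -0.75 ± 0.20 (edgeR adjusted p = 0.00641). Against trigeminal nerve, the log2 fold change was -0.99 ± 0.22 for outer ONL (edgeR adjusted p = 0.00189), -1.56 ± 0.22 for inner ONL (1.41e-05) and -0.81 ± 0.22 for olfactory nerve (0.00938). When all 31 libraries were fitted together, with a wider shared spread, the calls of inner ONL against olfactory nerve (edgeR adjusted p = 0.32), outer ONL against trigeminal nerve (0.233) and between the nerves (0.303) were lost with the same direction.

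Markers of other cells that make these proteins were set beside Apoe. The 10 macrophage markers summed to 498 to 588 CPM in trigeminal nerve, 443 to 915 in olfactory nerve, 306 to 415 in outer ONL and 196 to 275 in inner ONL. All 10 were lower in outer ONL than in olfactory nerve by the test, where 15.4% of all genes tested were lower. Between the nerves 3 of them were higher in olfactory nerve and 7 were not called, where 26.9% of all genes were called. Pericyte markers summed to 679 to 1033 CPM in trigeminal nerve, 644 to 980 in olfactory nerve, 331 to 524 in outer ONL and 221 to 291 in inner ONL. Radial glia and astrocyte markers summed to 800 to 1162 CPM in outer ONL and 751 to 1033 in inner ONL, against 172 to 301 in olfactory nerve and 256 to 331 in trigeminal nerve. The part of these cells in the Apoe level was not tested.

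Apod, the other lipocalin, was highest in olfactory nerve, at 1719, 506, 1135 and 660 CPM. Outer ONL was narrow, at 727, 685, 661 and 664 CPM. Inner ONL was lower, at 225, 332, 331 and 367 CPM, and trigeminal nerve lowest, at 169.5, 155.0 and 134.9 CPM. Outer and inner ONL did not overlap, and no olfactory library fell into the trigeminal range. Apod was higher than in trigeminal nerve by a log2 fold change of 2.77 ± 0.32 in olfactory nerve (edgeR adjusted p = 6.48e-06), 2.14 ± 0.31 in outer ONL (4.73e-05) and 1.06 ± 0.30 in inner ONL (0.00803). Inner ONL was lower than olfactory nerve (log2 fold change -1.71 ± 0.28, edgeR adjusted p = 8.72e-05) and lower than outer ONL (-1.08 ± 0.27, adjusted p = 0.00991). Outer ONL and olfactory nerve overlapped and differed by -0.63 ± 0.27 (edgeR adjusted p = 0.101), which passed without olfactory nerve replicate 2 (-0.85, adjusted p = 0.0115). Leptomeningeal markers, summed above, were also lower in inner than in outer ONL (7 of 9 tested), while all 6 olfactory bulb neuron markers were higher in inner ONL, where they summed to 687 to 1562 CPM against 9.05 to 235 in outer ONL. Of all 17800 genes tested there, 1342 were lower and 1805 higher in inner ONL. The part of either tissue in the Apod level was not tested.

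Clu ran against Ptgds and Vtn. It was at 4.52, 17.2, 14.9 and 10.9 CPM in outer ONL and 23.7, 24.1, 18.7 and 14.7 CPM in inner ONL. In trigeminal nerve it was at 41.5, 51.2 and 50.3 CPM, and in olfactory nerve at 197.4, 76.6, 87.6 and 56.8 CPM. Every ONL library was below every nerve library. Outer ONL was lower than olfactory nerve by a log2 fold change of -3.20 ± 0.39, a 9.16-fold difference (edgeR adjusted p = 1.17e-05), and inner ONL by -2.40 ± 0.38 (6.58e-05). Against trigeminal nerve the log2 fold changes were -2.01 ± 0.39 for outer (edgeR adjusted p = 0.000784) and -1.21 ± 0.39 for inner ONL (0.017). Olfactory exceeded trigeminal nerve by 1.19 ± 0.40 (edgeR adjusted p = 0.0339), a call that was lost without olfactory nerve replicate 1 (0.70, adjusted p = 0.151) without any 1 of the trigeminal libraries and in both fits of all 31 libraries (0.134 by label). The call of inner ONL against trigeminal nerve was lost in the fit of 31 by label (edgeR adjusted p = 0.0588). Inner and outer ONL overlapped and did not pass the test (0.79 ± 0.37, edgeR adjusted p = 0.172).

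**Figure D3:**
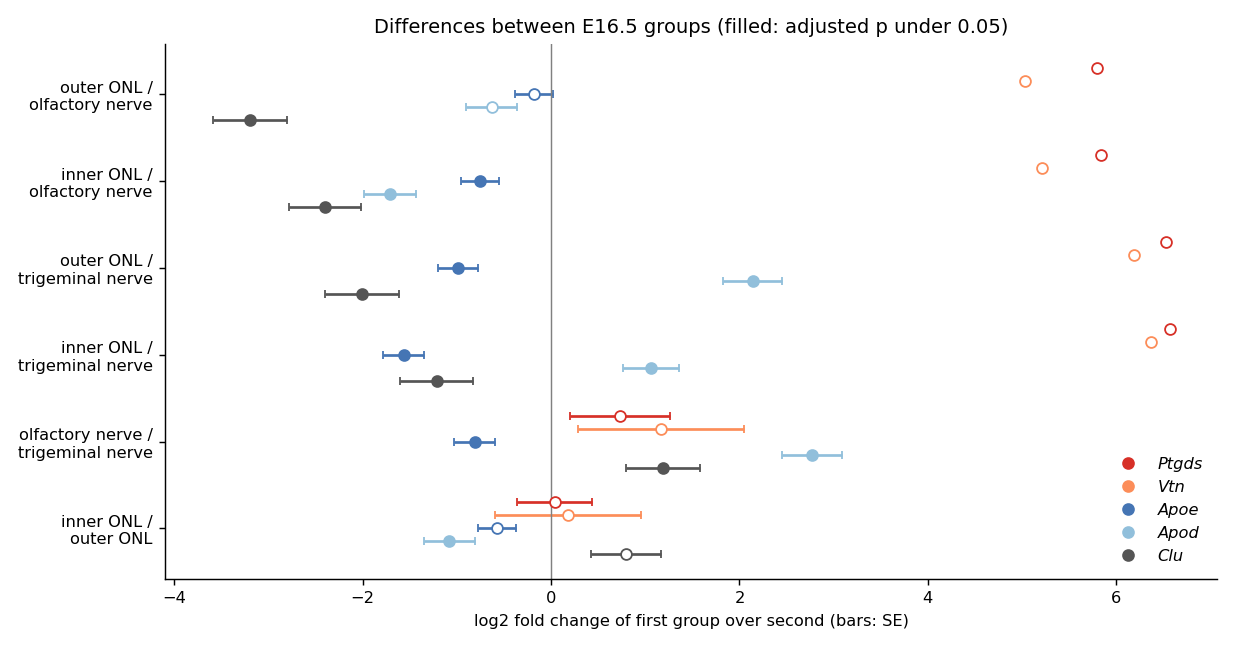
Log2 fold changes of the 5 carriers in the 6 comparisons between E16.5 groups, first group over second, with SE as bars. Filled points passed an adjusted p under 0.05, and the Ptgds and Vtn points of ONL over nerve are open with no bar because those contrasts chose them: they lie between 5.03 and 6.57, and the Clu points of ONL over nerve lie between -3.20 and -1.21.

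Counted by comparison, of Apoe, Apod and Clu 1 was called between outer ONL and olfactory nerve, where 25.7% of all genes tested were called. All 3 were called between inner ONL and olfactory nerve (40.3% of all genes), between outer ONL and trigeminal nerve (31.3%) and between inner ONL and trigeminal nerve (43.9%). Of the 5 genes, 3 were called between the nerves (26.9%) and 1, Apod, between inner and outer ONL (17.7%). Across the 15 libraries, log2 levels of Ptgds and Vtn had a Pearson r of 0.955, and Clu had r of -0.826 with Ptgds and -0.870 with Vtn. These are descriptions over libraries that fall into 4 groups, and the first 2 genes were chosen for the same contrast.

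Sox10 differed among the groups as well, so each carrier was set against it within the library. Relative to Sox10, Clu was lower in outer ONL than in olfactory nerve by a log2 difference of -5.46, from means of -5.85 ± 0.82 and -0.39 ± 0.98 (SD, n = 4 each). Apoe relative to Sox10 was at 0.73 ± 0.38 in outer ONL, 0.37 ± 0.09 in inner ONL, 3.19 ± 0.59 in olfactory nerve and 2.65 ± 0.15 in trigeminal nerve, and did not overlap between either part of the ONL and either nerve. Apod relative to Sox10 was at 0.09 ± 0.16 in outer ONL, -0.79 ± 0.55 in inner ONL, 2.88 ± 1.11 in olfactory nerve and -1.13 ± 0.29 in trigeminal nerve. Ptgds relative to Sox10 was -1.743 ± 0.013 in inner and -1.997 ± 0.340 in outer ONL, and the inner value had the smallest SD of those compared. Of 22 such comparisons 7 had an unadjusted p under 0.05 and 0 passed after adjustment. The smallest p the exact two-sided permutation test allows is 0.0286 for 4 against 4 libraries and 0.0571 for 4 against 3, and the lowest adjusted p was 0.0838.

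The genes whose E16.5 pattern was most like each carrier were found by Pearson r of log2(CPM + 0.5) over the 15 libraries, among 9896 genes. For Ptgds they were Hs3st1 (r = 0.987), Psmb11 and St8sia5 (0.985 each). For Vtn they were Anks1b (0.987), Cntn3 (0.978), Mgat3 (0.971) and Slc13a3 (0.968). Apoe was nearest to Uap1l1, Syngr2, Rab34 and Tpst2 (0.950 to 0.952), Apod to Cth, Mt2, Frmd4b and Acsbg1 (0.897 to 0.903), and Clu to Plk2, Gadd45g, Rasl11b and Galnt18 (0.916 to 0.923). Hs3st1, a heparan sulfate sulfotransferase, averaged 191 CPM in outer and 173 in inner ONL against 24.1 in olfactory nerve, and Slc13a3, a dicarboxylate transporter, 171 and 204 against 2.85. Acsbg1, an acyl-CoA synthetase, split the ONL as Apod did, with 156 CPM in outer and 40.1 in inner ONL.

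The partners of the carriers were counted in outer ONL against olfactory nerve, where 10.3% of all genes tested were higher and 15.4% lower, with a median of -0.049 on the log2 scale. Of 9 lipoprotein receptors tested, 4 were higher and 2 lower (median -0.337), or 1 lower without Lrp2, which passed the filter on low counts only through olfactory nerve. Lrp8, the reelin and apolipoprotein E receptor, rose from 9.14 ± 6.17 to 40.3 ± 10.9 CPM (log2 fold change 2.07 ± 0.37, edgeR adjusted p = 0.000442) and stood at 68.5 ± 11.8 CPM in inner ONL. Scarb1, a receptor for high-density lipoprotein, rose from 134 ± 14.9 to 244 ± 37.8 CPM (0.79 ± 0.14, adjusted p = 0.000619). Lrp2, an endocytic receptor of epithelia, was at 1.58 ± 0.394 CPM in olfactory nerve and 0.0192 ± 0.0383 in outer ONL, near the floor of 3 counts.

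Of 11 genes of lipoprotein loading and remodelling, 2 were higher and 3 lower (median -0.352). Lpl, lipoprotein lipase, fell from 189 ± 79.5 to 19.0 ± 8.29 CPM (log2 fold change -3.40 ± 0.32, edgeR adjusted p = 6.91e-07). Pltp, which transfers phospholipid between lipoproteins, rose from 24.6 ± 7.90 to 67.1 ± 10.5 CPM (1.38 ± 0.19, adjusted p = 5.12e-05), and Mylip, a ligase that degrades the LDL receptor, fell from 49.9 ± 9.06 to 21.3 ± 5.11 (-1.31 ± 0.20, adjusted p = 0.000128). Of 12 other apolipoproteins only 2 passed the filter on low counts and 1 was lower: Apoc1, a neighbour of Apoe made by macrophages, at 8.66 ± 1.66 CPM in olfactory nerve and 2.32 ± 0.834 in outer ONL (-1.97 ± 0.29, adjusted p = 9.04e-05).

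Other small lipophilic carriers split in both directions, with 2 of 11 tested higher and 4 lower (median -0.353). Fabp7, the brain fatty acid binding protein, rose from olfactory nerve to outer ONL (log2 fold change 3.49 ± 0.28, edgeR adjusted p = 1.39e-07). Crabp1, a cytoplasmic retinoic acid binding protein, fell from 112 ± 37.7 to 18.7 ± 7.89 CPM (-2.66 ± 0.29, adjusted p = 4.27e-06), and Rbp4, the plasma retinol carrier, from 9.90 ± 2.75 to 1.47 ± 0.836 (-2.79 ± 0.42, adjusted p = 9.26e-05). Crabp1 was at 365 ± 45.1 CPM in trigeminal nerve.

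Of 11 other genes of the prostaglandin D pathway tested, 1 was higher and 5 lower in outer ONL than in olfactory nerve (median -1.21), 1 of the 5 (Ptgs2, an inducible cyclooxygenase) having passed the filter only through olfactory nerve. Which called genes passed the filter through 1 group only was looked at after the data were seen. Pla2g4a, the phospholipase that frees arachidonic acid, fell from 113 ± 43.1 to 13.8 ± 8.18 CPM (-3.12 ± 0.35, edgeR adjusted p = 4.27e-06), and Ptgs1, a cyclooxygenase, from 28.7 ± 4.96 to 10.9 ± 2.43 (-1.48 ± 0.24, adjusted p = 0.000219). Ptges, which makes prostaglandin E from the same precursor, fell from 115 ± 51.6 to 31.9 ± 5.82 CPM (-1.92 ± 0.26, adjusted p = 3.18e-05). The 1 gene that was higher was Ptgdr, a prostaglandin D receptor, named here after its value was seen (log2 fold change 3.33, adjusted p = 0.00312).

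Of 9 vitronectin receptors and partners tested, 4 were lower by the test and the other 5 did not pass (median -0.957), and Itgb6, 1 of the 4, passed the filter only through olfactory nerve. Itgb5, an integrin subunit that pairs with the alpha v subunit to bind vitronectin, fell from 48.6 ± 7.69 to 16 ± 6.18 CPM (-1.67 ± 0.27, edgeR adjusted p = 0.00016), and Itgb8 from a mean of 35.5 to 16.2 CPM (-1.21 ± 0.26, adjusted p = 0.00249). Itgb6 was at 2.74 ± 1.45 CPM in olfactory nerve and 0.0628 ± 0.126 in outer ONL. Markers of olfactory epithelium summed to 127 to 290 CPM in olfactory nerve and to 5.37 to 10.04 in outer ONL, and their part in the genes lower in outer ONL was not tested.

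In every library before E16.5 the carriers other than Clu were below their lowest level in E16.5 ONL. By label, Ptgds was at 0.830, 1.87, 4.16 and 2.08 CPM in E11.5 olfactory nerve and at 0 to 0.896 CPM in E13.5 ONL. In E13.5 olfactory nerve it was at 4.94 CPM in replicate 1 and at 0 to 0.173 CPM in the other 6, none with more than 2 counts. Vtn was at 136, 144, 214 and 225 CPM in E11.5 olfactory nerve. In E13.5 ONL it was at 1.66 CPM in replicate 1 and 40.6 to 71.2 CPM in the rest. In E13.5 olfactory nerve it was at 206 CPM in replicate 1 and 0 to 11.3 CPM in the other 6. By label, none of the 5 genes was called between the ONL and the olfactory nerve of E13.5 (edgeR 17.7% of all genes called, unadjusted p under 0.05 for Clu only, 1 gene called by DESeq2), between the E13.5 and E11.5 nerves (17.5%, unadjusted p under 0.05 for 1 gene) or between E13.5 ONL and the E11.5 nerve (26.0%, unadjusted p under 0.05 for 2 genes). DESeq2 called 0 in these last comparisons.

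Grouped as averaged by the study, the early groups were separate for Vtn. It was at 185 ± 41.6 CPM in E13.5 ONL (n = 5), 2.67 ± 3.86 in the nerve of that stage (n = 7) and 52.6 ± 13.3 at E11.5 (n = 4), with no overlap between any 2 of these. Ptgds was at 2.78 ± 1.71 CPM in E13.5 ONL, with no library of E13.5 olfactory nerve above 2 counts, and at 0.559 ± 0.388 in E11.5 olfactory nerve. The log2 fold change of E13.5 ONL over nerve was 6.27 for Ptgds and 5.98 for Vtn. Both were chosen as ONL-enriched, so these ONL and nerve values are a description. Of Apoe, Apod and Clu, 0 were called between E13.5 ONL and nerve in this grouping (edgeR, 31.5% of all genes called), and 0 had an unadjusted p under 0.05. Ptgds, Vtn and Clu were called between E13.5 and E11.5 olfactory nerve (36.6%): Ptgds and Vtn were lower at E13.5, and Clu higher, at 38.4 ± 8.70 against 14.5 ± 13.03 CPM (log2 fold change 1.40 ± 0.40, adjusted p = 0.00686). Of Apoe, Apod and Clu, only Apod was called, and higher, in E13.5 ONL against E11.5 olfactory nerve (36.4%). The log2 fold change of Ptgds there, 2.47, is a description. The 10 leptomeningeal markers summed to 289 to 672 CPM in the 5 libraries averaged as E13.5 ONL, 882 to 1205 in the 7 of E13.5 nerve and 348 to 568 in the 4 of E11.5. The single markers Slc6a13 and Tbx18, picked after their values were seen, ran the other way, at 17.0 to 41.0 and 21 to 31 CPM in the first of these groups, 0 to 1.69 and 0.074 to 1.83 in the second, and 1.74 to 4.32 and 4.35 to 10.7 in the third. Their part in Ptgds and Vtn was not tested.

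**Figure D4:**
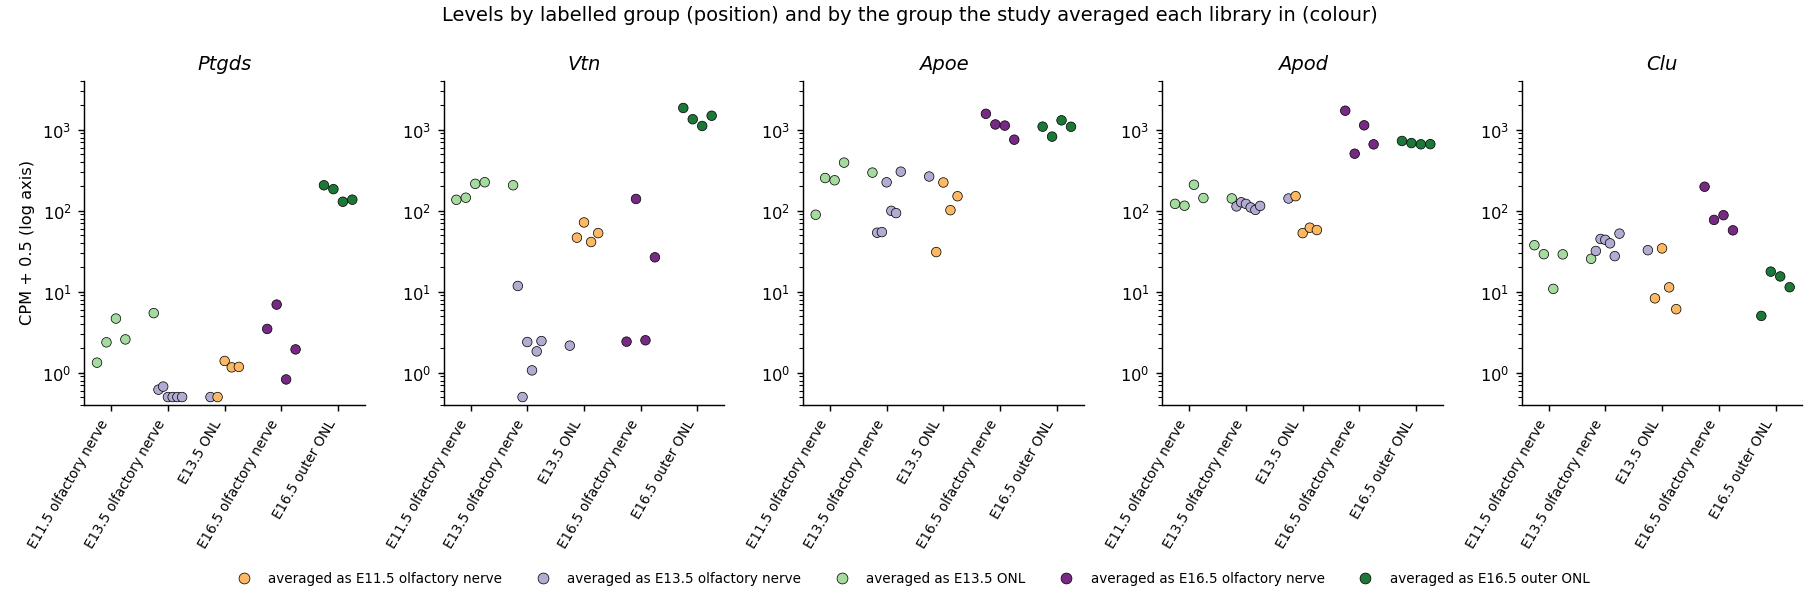
Levels of the 5 carriers in the olfactory nerve libraries of each stage, the E13.5 ONL and the E16.5 outer ONL, as CPM + 0.5 on a log axis. Position gives the labelled group and colour the group in which the study averaged the library: for Vtn, colours separate the early libraries (185 ± 41.6, 2.67 ± 3.86 and 52.6 ± 13.3 CPM) and positions do not.

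From E13.5 to E16.5, Apoe, Apod and Clu rose in olfactory nerve under either grouping. By label, Apoe had a median of 99.2 CPM (53.0 to 303) in the 7 E13.5 nerve libraries and rose by a log2 fold change of 2.85 ± 0.45 (edgeR adjusted p = 4.68e-05). Apod was at a median of 114 CPM (102 to 141) and rose by 3.09 ± 0.27 (adjusted p = 1.42e-08), and Clu at a median of 39.1 CPM (24.99 to 51.6) rose by 1.49 ± 0.40 (adjusted p = 0.00765), with no overlap between the stages for any of the 3. These were 3 of the 5 genes, where 25.1% of all genes were called, and grouped as averaged all 5 were called (28.8%). The calls added there were Ptgds, with at most 2 counts in any E13.5 nerve library, and Vtn. Vtn overlapped between the stages, at 0 to 11.3 CPM at E13.5 and 1.92, 139.3, 2.01 and 26.1 CPM at E16.5. With replicate number as a block, Clu did not pass (1.24, edgeR adjusted p = 0.0796), nor without E16.5 olfactory nerve replicate 1 (0.98, adjusted p = 0.0998). Markers of other cells were higher at E16.5 with no overlap between the stages by label. Macrophage markers summed to 155 to 392 CPM at E13.5 and 443 to 915 at E16.5, pericyte markers to 134 to 402 and 644 to 980, and leptomeningeal markers to 476 to 1205 and 1289 to 1783. Their part in the rise of these genes was not tested.

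In the ONL, Apoe and Apod also rose to E16.5. Outer ONL exceeded E13.5 ONL by a log2 fold change of 2.81 ± 0.51 for Apoe (edgeR adjusted p = 8.51e-05) and 2.89 ± 0.30 for Apod (3.69e-08) by label, and by 2.09 ± 0.46 (0.000496) and 2.23 ± 0.28 (1.54e-07) as averaged. Ptgds and Vtn were chosen on the E16.5 ONL libraries, so their values are a description: by label the log2 fold changes were 8.39 and 5.09, and as averaged 5.73 and 2.97. Of Apoe, Apod and Clu, 2 were called by label (35.2% of all genes) and all 3 as averaged (41.9%), where Clu was lower at E16.5 (-1.10 ± 0.43, edgeR adjusted p = 0.0377) against -0.59 ± 0.45 by label (0.322).

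The difference between ONL and nerve changed with stage most clearly for Clu. Clu was lower in ONL at E16.5 by more than at E13.5, by -2.08 ± 0.61 on the log2 scale by label (edgeR adjusted p = 0.0235) and by -2.55 ± 0.57 as averaged (0.00245). By label this call was lost with replicate number as a block (-1.79, adjusted p = 0.107). It was also lost without E13.5 ONL replicate 3, E16.5 olfactory nerve replicate 1 or E16.5 outer ONL replicate 1 (edgeR adjusted p of 0.0628 to 0.0938). Of Apoe, Apod and Clu it was the 1 called in either grouping (12.5% of all genes by label, 12.3% as averaged). For Ptgds, whose E16.5 difference chose it, the change is a description: 6.86 by label, 2.43 without E13.5 olfactory nerve replicate 1 and -0.40 as averaged.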

How the data were processed

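RNA was sequenced from microdissected nerve pieces. The authors aligned reads to mm10 with TopHat2 2.1.0 and counted them per gene with HTSeq, and the deposited matrix holds unnormalized counts of 31 libraries. Whether counting used strand is not given in the sources used here. Symbols and exon lengths came from GENCODE M21, which named 47224 of 47729 genes. The members and the lists of partners and markers were chosen with earlier results of these data known.

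Counts were scaled by TMM, filtered by filterByExpr and fitted by group with edgeR 4.0.16 in R 4.3.3 (quasi-likelihood test, Benjamini-Hochberg). E16.5 groups were compared in 1 fit of their 15 libraries (17800 genes) and stages in 1 fit of all 31 by label (19332 genes), then with early libraries grouped as averaged by the study. DESeq2 1.42.0 was an alternative. Ratios to Sox10 used log2(CPM + 0.5) and exact permutation in SciPy 1.17.1. Up to 3 counts were treated as the floor, which covers counting error only. Named genes were the members, up to 3 called genes with the smallest p from each partner list, and the 4 genes most like each member among those with a mean of at least 20 CPM in an E16.5 group. Of the genes these rules take in, 1 of those most like Ptgds and the summed OEC markers are not reported here. On simulated data for outer ONL against olfactory nerve (17904 genes), edgeR recovered 21 of 100 genes changed 2-fold and 100 of 100 changed 4-fold, with 6 unchanged genes called. Promoters came from RefSeq (GRCm38.p6) for 4 of the 5 members, and 1 of the listed symbols, Lcnl1, matched no row.

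The labels number replicates without saying what a number shares. Residuals of 9897 genes correlated at 0.241 to 0.522 between same-numbered olfactory nerve and outer ONL libraries, and at -0.386 to 0.361 between those of different number. These ranges overlapped, so the number may pair the libraries of these 2 groups but does not show that it does. The values printed for outer ONL against olfactory nerve are from the fit with no replicate block, and the block was run as an alternative. In the other E16.5 pairs of groups at least 1 same-number correlation was below 0.1.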

Additional observations from a re-analysis of the deposited data

Results flagged for a closer look

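Among 30 sets of libraries tested for 1 that stands apart by Dixon's test, 2 were flagged, where chance flags about 1 in 20. Both were E13.5 olfactory nerve replicate 1, with Ptgds at 4.94 CPM against 0 to 0.173 in the other libraries of its label and Vtn at 206.1 CPM against 0 to 11.3. The study averaged this library with those of E13.5 ONL.

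The difference between ONL and olfactory nerve was compared between E16.5 and E13.5 by the interaction term of the edgeR fit by label. It changed by -2.08 on the log2 scale for Clu (adjusted p = 0.0235), and by -2.55 grouped as averaged by the study (adjusted p = 0.00245). For Ptgds it was larger at E16.5 by 6.86, and the value was -0.40 as averaged. Ptgds was chosen for its E16.5 difference and stood at 0 to 33 counts in the libraries labelled E13.5 ONL, so its values are a description.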

How the results depend on the processing

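Calls among the 5 genes changed with the grouping of the early libraries and with E13.5 olfactory nerve replicate 1. Counts across stages include Ptgds and Vtn, whose ONL values are descriptions, so counts for comparisons with the ONL are descriptions too. As averaged, the 2 genes for E13.5 ONL against nerve were Ptgds and Vtn. Those for E13.5 ONL against E11.5 nerve were Ptgds and Apod. Grouped as averaged by the study, the count of genes called went from 0 to 2 for E13.5 ONL against nerve, from 0 to 3 for E13.5 against E11.5 nerve, from 0 to 2 for E13.5 ONL against E11.5 nerve, from 3 to 5 for E16.5 against E13.5 nerve and from 2 to 1 for the change of the ONL difference with stage, where Ptgds reversed to -0.40. Leaving out 1 library at a time gave 0 to 3, 0 to 2, 0 to 1, 2 to 5 and 1 to 3 genes for these comparisons, in that order. The 3, 2 and 5 came without E13.5 olfactory nerve replicate 1. DESeq2 called 1 gene in E13.5 ONL against nerve.

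At E16.5, between inner and outer ONL 2 genes in place of 1 were called by DESeq2, with scaling by total count, with no filter on low counts, with the replicate block and with the 2 groups fitted alone, the added gene being Apoe. Between the nerves 1 gene in place of 3 was called when all 31 libraries were fitted, by label or as averaged. Leaving out 1 library gave 1 to 2 genes for inner against outer ONL, 2 to 3 between the nerves and 1 to 2 for outer ONL against olfactory nerve, the 2 being without olfactory nerve replicate 2. With the replicate block the change of the ONL difference with stage was called for 1 gene in place of 2, and the block changed no other count by over 1.5 times, outer ONL against olfactory nerve (1 gene) included.

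Values near 0 changed sign. Ptgds in inner against outer ONL was -0.0015 with scaling by total count, -0.0031 in both fits of 31 libraries, -0.0097 with the 2 groups alone and -0.11 to 0.18 without single libraries. Apoe in outer ONL against olfactory nerve was -0.28 to 0.0011 without single libraries. Between the nerves, leaving out single libraries gave -0.072 to 1.07 for Ptgds, -0.87 to 1.57 for Vtn and -0.24 to 1.51 for Vtn relative to Sox10, the lowest each time without olfactory nerve replicate 2. The causes were not tested. Relative to Sox10, pseudocounts of 0.1 and 2 CPM and scaling by total count gave 0 genes past the threshold, as did the 0.5 CPM used, but the exact permutation test could not pass at these group sizes after adjustment. Scaling by total count put the median of all genes at 0.22 (log2) between the nerves, against 0.026 with TMM. Counts of 0 to 3 in early libraries limit what can be said of Ptgds there.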

Other observations

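Apoe varied widely before E16.5, and in E13.5 olfactory nerve its levels went with the sex of the tissue as read from Xist, a pattern noticed in the data and not tested. The 3 libraries with Xist at 221 CPM or more (replicates 1, 4 and 7) held Apoe at 295, 224 and 303 CPM. The other 4, which held Ddx3y at 66.3 to 119 CPM, held Apoe at 53.0, 54.0, 99.2 and 93.0 CPM. In the libraries labelled E11.5 olfactory nerve, Apoe was at 253, 237 and 392 CPM in the 3 with Xist and at 88.8 CPM in the 1 without, the library with the lowest total. The libraries labelled E13.5 ONL did not separate, with 264, 30.4 and 223 CPM in those with Xist and 101 and 151 CPM in those without. Grouped as averaged by the study, libraries with and without Xist did not overlap for Apoe in E13.5 nerve or in E13.5 ONL, where 1 library lacked Xist. They overlapped in E11.5 nerve. At E16.5 the library with Xist was the highest for Apoe in outer ONL (1308 CPM) and inner ONL (816 CPM), and it was neither highest nor lowest in olfactory nerve (1126 CPM) and trigeminal nerve (1925 CPM). Macrophage markers in the 7 libraries labelled E13.5 olfactory nerve summed to 289, 264 and 392 CPM with Xist and to 155, 185, 286 and 211 CPM without. Few embryos gave these libraries, so sex and embryo cannot be told apart.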
